A study of Mus musculus with 12 samples.

Results

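The antioxidant program of the transcription factor NRF2 was followed in murine BrafV600E melanoma cells that lack one of 3 genes of prostaglandin synthesis. *Nfe2l2*, which codes for NRF2, and 9 genes widely used as its targets (*Nqo1*, *Hmox1*, *Gclc*, *Gclm*, *Srxn1*, *Txnrd1*, *Slc7a11*, *Gsta4*, and *Gstm1*) were chosen by name. These 10 genes were all found among the 30705 gene names of the data. *Gsta4* had a mean under 1 RPKM (reads scaled to transcript length and to library size), and 9 of the 10 were therefore tested, among 11282 genes in all.

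RNA-seq was performed on 12 samples of untreated cells in culture. Beside 3 scramble samples there were 3 samples of each knockout, made with CRISPR/CAS9 against *ptgs1* (the gene for COX-1), *ptgs2* (for COX-2), or *ptges* (for mPGES-1). The 4 groups share 1 origin, a melanoma of a C57BL/6 mouse that carried the Braf+/LSL-V600E allele, the Cre gene Tyr::CreERT2+/o, and p16INK4a-/-, so the scramble cells also carry activated BRAF and lack p16INK4a. Cre in such mice is driven by the promoter of tyrosinase, a melanocyte gene. After puromycin selection and limiting dilution, RNA was taken from 3 subclones of each line, and p-values therefore measure the spread between subclones, not between independently made knockouts. All 4 groups are of 1 cell background. The age of the mouse is not given.

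The lines were checked by their target genes. *Ptgs1* was at 142, 164, and 149 RPKM in scramble samples and at 16.9, 16.8, and 14.3 in *ptgs1*-KO samples. *Ptgs2* was at 749, 777, and 759 RPKM in scramble samples and at 78.5, 84.6, and 76.1 in *ptgs2*-KO samples. *Ptges* was at 78.0, 75.0, and 79.8 RPKM in scramble samples and at 41.0, 35.6, and 34.8 in *ptges*-KO samples. Each target mRNA was thus lower in its own line in 3 of 3 samples, although transcript remained, most of all for *Ptges*. In *ptgs1*-KO cells, *Ptges* was also lower, at 56.9, 55.0, and 51.5 RPKM (log2 fold change -0.50, adjusted p = 0.00110 in limma), and so was *Ptgs2*, at 624, 668, and 502 RPKM (-0.36, adjusted p = 0.0386). The lowest value of each was of replicate 3, a library that stood apart (below), and these 2 calls are not given without it. From the same RNA-seq, the paper reports the lower *ptges* in *ptgs1*-KO cells but no lower *ptgs2*.

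Markers of the melanocyte lineage were low in these cells. *Sox10*, *Dct*, *Tyrp1*, and *Mlana* were listed at 0 in all 12 samples, *Pmel* and *Tyr* stayed at or under 1.29 RPKM, and *Mitf* was between 0.97 and 3.35 RPKM. Of the fibroblast markers, *Dcn* and *Lum* were listed at 0 *Col1a1* and *Col1a2* did not exceed 1.10 and 0.43 RPKM, and *Pdgfra* was between 3.36 and 11.05 RPKM. *Pdgfra* was lower than in scramble cells in *ptgs2*-KO (log2 fold change -0.93) and *ptges*-KO samples (-0.52), and its part in the results below was not tested. Mean *Col1a1* was 0.310 RPKM in scramble, 0.980 in *ptgs1*-KO, 0.340 in *ptgs2*-KO, and 0.0767 in *ptges*-KO samples, and mean *Col1a2* 0.143, 0.247, 0.207, and 0.0267, all under the limit for testing. Leukocyte, endothelial, and keratinocyte markers had means over the 12 samples of at most 0.0717 RPKM. Their highest group mean was 0.11 RPKM, of *Cdh5* in *ptgs1*-KO samples. The name melanoma therefore rests on the origin of the line. In bulk RNA, fewer cells of a kind and less RNA per cell cannot be told apart.

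Estimated depth was 13.35 to 16.9 M reads per sample. One library stood apart. In *ptgs1*-KO replicate 3, the 2 ribosomal RNA rows of the data held 13.5% of the summed RPKM, against 0.528% to 4.79% in the other 11 samples. Changes in *ptgs1*-KO cells that passed among the 10 genes and the further lists are also given without it.

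In unstressed cells NRF2 is held by KEAP1, which hands it to a CUL3 ubiquitin ligase for degradation. Oxidants and electrophiles, some cyclopentenone prostaglandins among them, modify cysteines of KEAP1, and NRF2 then accumulates, pairs with a small MAF protein, and binds antioxidant response elements near its target genes. The targets supply glutathione, reduce thioredoxin and peroxiredoxins, and detoxify quinones, heme, and electrophiles. Because NRF2 is controlled largely through its stability, the level of *Nfe2l2* mRNA and the activity of the protein are different quantities, and protein was not measured in these data.

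Promoter sequences are shown to locate matches to the core of the antioxidant response element. RefSeq promoter windows of GRCm38.p6, from 250 bases before to 50 bases after a start site, were found for 7 of the 10 genes, in 10 windows. The windows were searched on both strands for the core of the antioxidant response element, TGACNNNGC, in which N is any base. The core was present in 4 of 10 windows and in 12.4% of all 32851 windows, or in 4 of 7 genes against 14.0% of 27025 genes. *Nfe2l2*, *Srxn1*, *Gclm*, and *Txnrd1* had 1 match each, the last in 1 of its 3 windows, and the windows of *Nqo1*, *Slc7a11*, and *Gstm1* had none. In the lines below the match is in capitals, and the sequences of *Srxn1*, *Gclm*, and *Txnrd1* show the reverse complement of the core, which lies on the opposite strand.
*Nfe2l2*, 30 bases at chr2:75704884-75704913, minus strand, match from position -240 to -232 relative to the start site: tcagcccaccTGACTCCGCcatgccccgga
*Srxn1*, 30 bases at chr2:152105542-152105571, plus strand, match from position 29 to 37, within the transcript: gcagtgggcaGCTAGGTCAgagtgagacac
*Gclm*, the 250 bases before the start site at chr3:122245307-122245556, plus strand, match from position -134 to -126: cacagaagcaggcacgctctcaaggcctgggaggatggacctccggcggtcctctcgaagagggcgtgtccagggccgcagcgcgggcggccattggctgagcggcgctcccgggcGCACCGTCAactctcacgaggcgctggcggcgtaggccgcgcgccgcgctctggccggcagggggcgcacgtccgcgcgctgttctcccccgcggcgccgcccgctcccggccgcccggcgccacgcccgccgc
*Txnrd1*, the 250 bases before its second start site at chr10:82858956-82859205, plus strand, match from position -92 to -84: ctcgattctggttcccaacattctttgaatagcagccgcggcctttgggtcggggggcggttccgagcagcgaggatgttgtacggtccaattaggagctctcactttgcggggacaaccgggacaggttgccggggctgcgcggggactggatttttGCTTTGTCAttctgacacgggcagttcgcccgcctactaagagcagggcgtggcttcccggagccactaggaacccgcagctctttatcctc
None of these 4 matches held the AP-1 element TGACTCA, which can overlap the core, and the rest of each window was not searched for it. A match describes these letters only, and binding was not measured.

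The 9 tested genes did not move as 1 block. *Nqo1* was lower than in scramble cells in all 3 knockouts, *Hmox1* was higher in *ptgs2*-KO and *ptges*-KO cells, *Gclm* was higher in *ptgs2*-KO cells, and *Slc7a11* and *Gstm1* were higher in *ptgs1*-KO cells. Against scramble, *ptgs1*-KO cells had 2 of the 9 genes higher and 1 lower, with and without replicate 3, where 9.26% of all genes tested passed the same test in either direction, 4.65% higher and 4.61% lower. The counts for *ptgs2*-KO cells were 2 higher and 1 lower, beside 11.1% of all genes (5.97% higher, 5.17% lower), and those for *ptges*-KO cells 1 higher and 1 lower, beside 26.3% (11.9% higher, 14.4% lower). With other scalings the balance of all genes in *ptges*-KO cells turned, to 2054 higher of 3768 (median ratio) and 1870 of 3476 (quantile), from 1342 of 2969. The share of the 9 genes was above the background in the first 2 comparisons and near it in *ptges*-KO cells. The count in *ptgs1*-KO cells fell from 3 to 1 without *ptgs1*-KO replicate 2, where 776 of all genes passed in place of 1045. A gene was counted at an adjusted p under 0.05 in limma, over all 11282 genes. The 3 comparisons share the scramble samples.

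**Figure D1:**
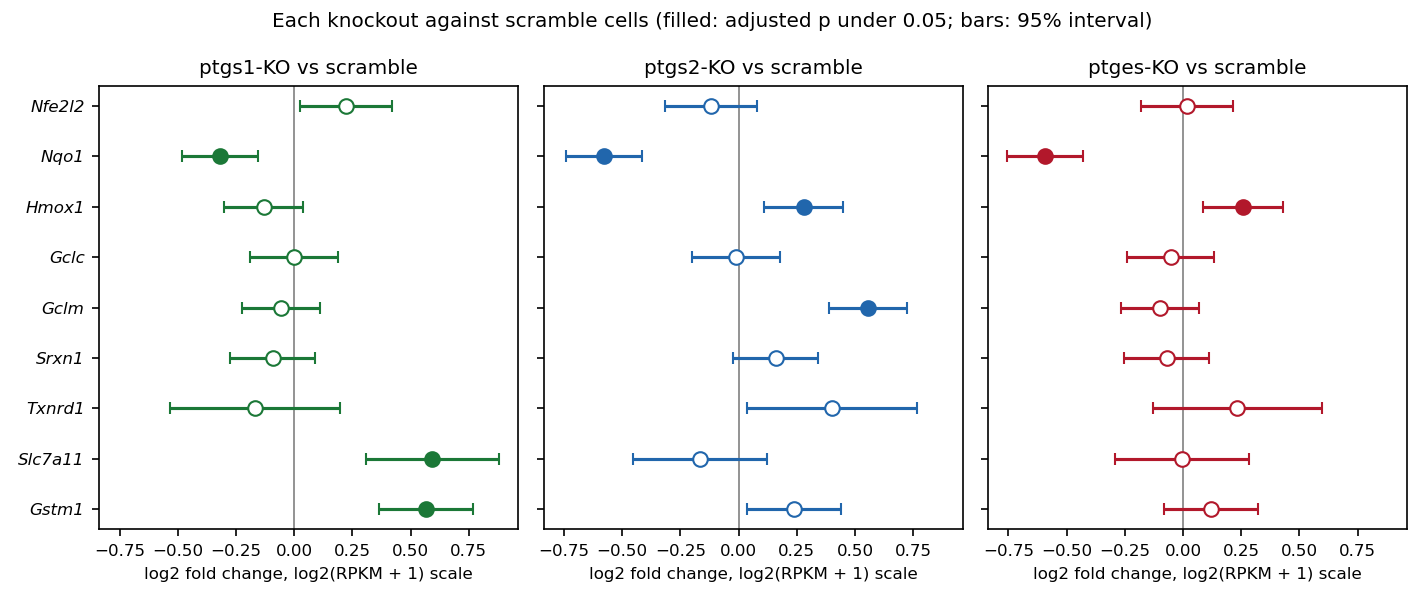
Log2 fold change of the 9 tested genes in each knockout against scramble cells, on the log2(RPKM + 1) scale, with 95% intervals from limma as bars and filled points for adjusted p under 0.05. *Nqo1* lies left of 0 in all 3 panels. Filled points right of 0 are *Slc7a11* and *Gstm1* for *ptgs1*-KO, *Gclm* and *Hmox1* for *ptgs2*-KO, and *Hmox1* for *ptges*-KO cells.

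The size of the changes was moderate. The median absolute log2 fold change of the 9 genes was 0.17 in *ptgs1*-KO cells (0.14 over all genes tested), 0.24 in the *ptgs2*-KO line (0.15), and 0.10 in the *ptges*-KO line (0.19). When all 4 groups were compared at once by the moderated F test of limma, 6 of the 9 genes differed, beside 38.6% of all genes. *Gclm* had the largest F of the 9 (31.37, adjusted p = 6.43e-05), followed by *Nqo1* (27.17, adjusted p = 0.000123). *Srxn1* (adjusted p = 0.0875), *Txnrd1* (adjusted p = 0.0571), and *Gclc* (adjusted p = 0.928) did not pass.

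**Figure D2:**
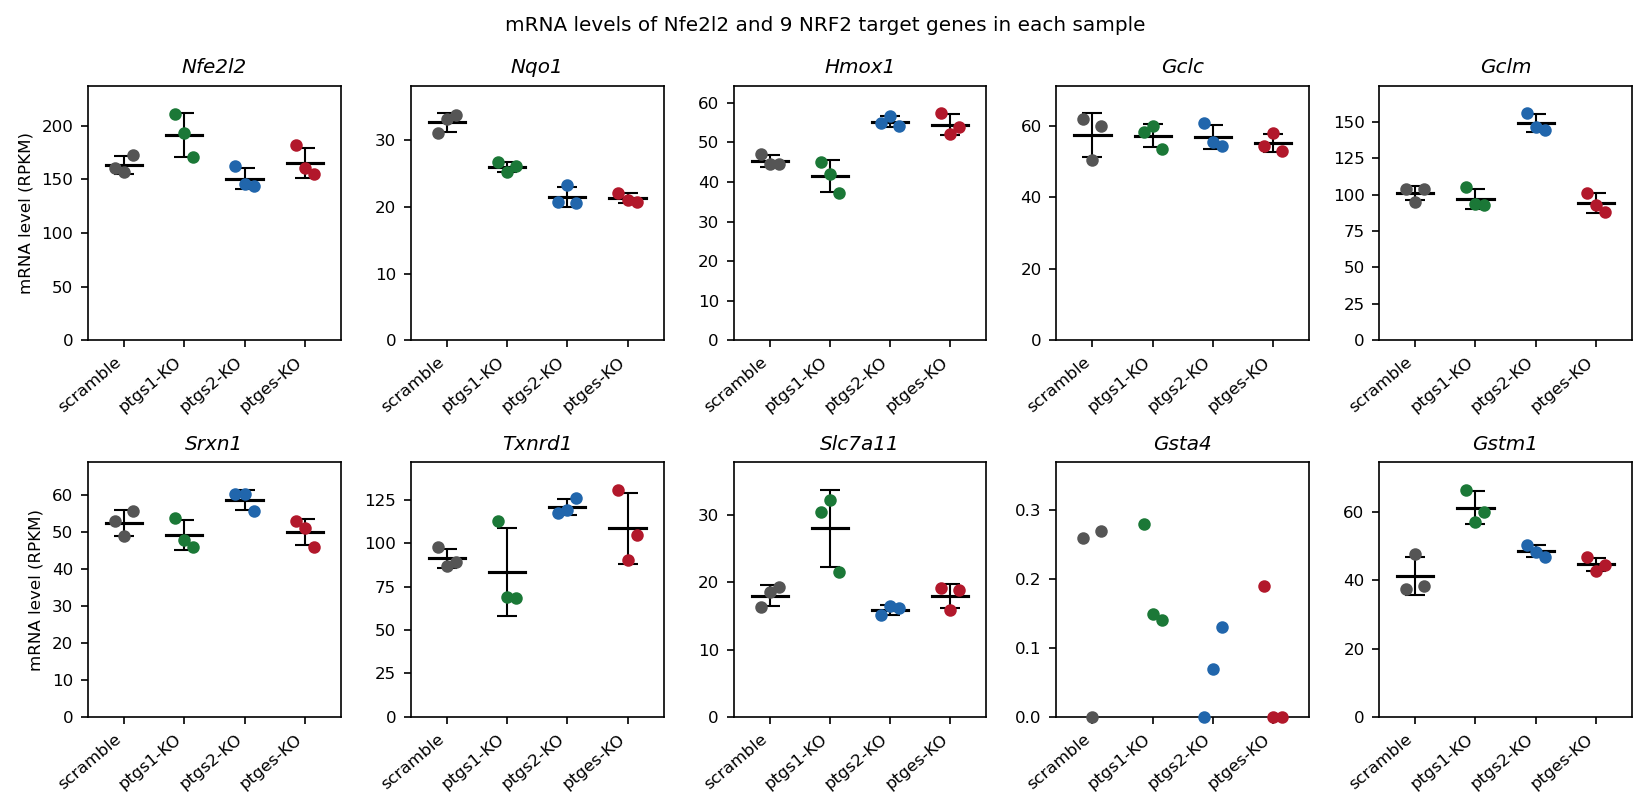
mRNA level in RPKM of *Nfe2l2* and the 9 target genes in each of the 12 samples, with 1 point per sample and, except for *Gsta4*, the group mean as a line and SD as bars (n = 3). *Nqo1* is highest in the 3 scramble samples, *Gclm* highest in the 3 *ptgs2*-KO samples, *Slc7a11* and *Gstm1* highest in the 3 *ptgs1*-KO samples, and *Gsta4* stays at or under 0.28 RPKM.

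*Nfe2l2* (GRCm38, chr2:75675513-75704641, minus strand) was the most abundant of the 10 genes, with a mean of 168 RPKM over the 12 samples. It was at 160.5, 157, and 173 RPKM in scramble samples, at 211, 193, and 171 in *ptgs1*-KO samples, at 162, 146, and 144 in *ptgs2*-KO samples, and at 182, 160.2, and 155 in *ptges*-KO samples. The *ptgs1*-KO samples were all above the *ptgs2*-KO samples, and every other pair of groups overlapped. Against scramble cells, its log2 fold change was 0.22 ± 0.09 (SE, adjusted p = 0.161) in *ptgs1*-KO, -0.12 ± 0.09 (adjusted p = 0.446) in *ptgs2*-KO, and 0.02 ± 0.09 (adjusted p = 0.915) in *ptges*-KO cells, none of which passed. The first passed with median ratio scaling (0.21, adjusted p = 0.0412) and with quantile normalization (0.24, adjusted p = 0.0416). It was 0.30 (adjusted p = 0.0540) without *ptgs1*-KO replicate 3. In order of the mean, *ptgs1*-KO cells came first (192 ± 20.2 RPKM, SD, n = 3), then *ptges*-KO (166 ± 14.0), scramble (164 ± 8.46), and *ptgs2*-KO cells (151 ± 9.80), and no neighbors in this order differed by limma.

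Of 15 listed genes for proteins that hold or assist NRF2, 12 were tested. By limma 0 passed in *ptgs1*-KO cells, beside 9.26% of all genes (2 at an unadjusted p under 0.05, 0 by the Tukey test). The *ptgs2*-KO line had 1 (8.33%, beside 11.1%, 0 by the Tukey test) and the *ptges*-KO line 4 (33.3%, beside 26.3%, 2 by the Tukey test). Here and below, Tukey p-values were also adjusted by Benjamini-Hochberg over all genes tested, which is stricter than the Tukey test alone. Shares of all genes beside limma counts are at an adjusted p under 0.05. None is given at an unadjusted p, so counts at an unadjusted p have no background here. *Keap1* was at 39.4 ± 2.19 RPKM (SD, n = 3) in scramble cells and at 39.4 ± 4.31, 38.9 ± 3.10, and 39.9 ± 4.32 in *ptgs1*-KO, then *ptgs2*-KO, then *ptges*-KO, with adjusted p from 0.924 to 0.993. *Cul3*, the scaffold of the ligase, was at 90.7, 93.6, and 103 RPKM in scramble samples, at 133, 126, and 125 in *ptgs2*-KO samples, and at 141, 133, and 123 in *ptges*-KO samples. It was higher in 3 of 3 samples of both lines, with log2 fold changes of 0.42 ± 0.08 (adjusted p = 0.00623) and 0.46 ± 0.08 (adjusted p = 0.00138). In *ptges*-KO cells, *Gsk3b*, a kinase that marks NRF2 for another ligase, was lower by limma (log2 fold change -0.51 ± 0.12, adjusted p = 0.00656), as was *Mafk*, a small MAF partner (-0.35 ± 0.08, adjusted p = 0.00424). *Bach1*, the repressor that competes at the same elements, was at 8.10 ± 0.312 RPKM in scramble cells and had adjusted p from 0.391 to 0.889.

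Glutathione synthesis was represented by 3 genes, and each behaved differently. *Slc7a11* (chr3:49892526-50443614, minus strand) codes for the cystine transporter xCT, which brings in the cysteine for glutathione. It was at 16.3, 18.5, and 19.3 RPKM in scramble samples, at 30.5, 32.2, and 21.6 in *ptgs1*-KO samples, at 15.1, 16.5, and 16.3 in *ptgs2*-KO samples, and at 19.1, 16.0, and 18.9 in *ptges*-KO samples. All 3 *ptgs1*-KO samples were above all samples of the other groups, and replicate 3 was the lowest of them. Its log2 fold change between *ptgs1*-KO and scramble cells was 0.59 ± 0.13 (adjusted p = 0.0127), a fold of 1.51, and 0.77 (adjusted p = 0.000751) without replicate 3. The call was lost without scramble replicate 1 (0.53, adjusted p = 0.0624), *ptgs1*-KO replicate 1 (0.53, adjusted p = 0.0578), or *ptgs1*-KO replicate 2 (0.49, adjusted p = 0.0564), and by the Tukey test (adjusted p = 0.227). It was -0.17 ± 0.13 (adjusted p = 0.456) in *ptgs2*-KO and -0.01 ± 0.13 (adjusted p = 0.984) in *ptges*-KO cells.

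*Gclm* and *Gclc* code for the modifier and the catalytic subunit of glutamate-cysteine ligase, the rate-limiting enzyme of glutathione synthesis. *Gclm* (chr3:122245557-122270732, plus strand) was at 104, 95.2, and 104 RPKM in scramble samples, at 105, 93.3, and 93.1 in *ptgs1*-KO samples, at 156, 147, and 144 in *ptgs2*-KO samples, and at 101, 93.1, and 88.3 in *ptges*-KO samples. The 3 *ptgs2*-KO samples were above the other 9, which overlapped among themselves. In *ptgs2*-KO against scramble cells, the log2 fold change of *Gclm* was 0.56 ± 0.08 (adjusted p = 0.000554), a fold of 1.47. In *ptgs1*-KO and *ptges*-KO cells it was -0.06 ± 0.08 (adjusted p = 0.711) and -0.10 ± 0.08 (adjusted p = 0.382). The promoter of *Gclm* shown above holds the core at position -134, as *Nfe2l2*, *Srxn1*, and *Txnrd1* hold it elsewhere in their windows.

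*Gclc* (chr9:77754535-77794485, plus strand) was at 61.9, 50.6, and 60.1 RPKM in scramble samples, at 58.4, 59.9, and 53.7 in *ptgs1*-KO samples, at 60.8, 55.6, and 54.3 in *ptgs2*-KO samples, and at 54.5, 58.1, and 53.0 in *ptges*-KO samples. All 4 groups overlapped. No comparison passed for *Gclc*, with 95% intervals of the log2 fold change from -0.19 to 0.19 in *ptgs1*-KO, from -0.20 to 0.18 in *ptgs2*-KO, and from -0.24 to 0.13 in *ptges*-KO cells. The ratio of *Gclm* to *Gclc* in RPKM was 1.76 ± 0.106 (SD, n = 3) in scramble, 1.70 ± 0.125 in *ptgs1*-KO, 2.62 ± 0.0469 in *ptgs2*-KO, and 1.71 ± 0.134 in *ptges*-KO cells. It ranged from 2.57 to 2.65 in *ptgs2*-KO samples and did not exceed 1.88 in the others.

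In the thioredoxin branch, *Txnrd1* (chr10:82833951-82897712, plus strand), thioredoxin reductase 1, varied most between samples of 1 line. It was at 97.8, 87.1, and 89.5 RPKM in scramble samples, at 113, 69.1, and 68.6 in *ptgs1*-KO samples, at 117, 119, and 126 in *ptgs2*-KO samples, and at 131, 90.5, and 105 in *ptges*-KO samples. The *ptgs2*-KO samples were above all scramble and *ptgs1*-KO samples, whereas *ptgs1*-KO samples spanned the scramble range and *ptges*-KO samples overlapped it. Its SD was 25.3 RPKM in *ptgs1*-KO and 20.5 in *ptges*-KO cells, against 5.60 in scramble and 4.69 in *ptgs2*-KO cells. The log2 fold change in *ptgs2*-KO against scramble cells, 0.40 ± 0.17, did not pass (adjusted p = 0.145), nor did those in *ptgs1*-KO (-0.17 ± 0.17, adjusted p = 0.598) and *ptges*-KO cells (0.23 ± 0.17, adjusted p = 0.341). The first passed with only the groups compared (adjusted p = 0.0101) and without *ptgs1*-KO replicate 1 (adjusted p = 0.0376).

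*Srxn1* (chr2:152105516-152111376, plus strand) codes for sulfiredoxin, which repairs overoxidized peroxiredoxins. It was at 52.9, 48.8, and 55.6 RPKM in scramble samples, at 53.6, 47.8, and 45.9 in *ptgs1*-KO samples, at 60.3, 60.2, and 55.5 in *ptgs2*-KO samples, and at 52.9, 51.0, and 45.9 in *ptges*-KO samples. The *ptgs2*-KO samples were above those of both other knockouts, and overlapped scramble samples. Against scramble cells its log2 fold changes were -0.09 ± 0.08 (adjusted p = 0.556) for *ptgs1*-KO, 0.16 ± 0.08 (adjusted p = 0.244) for *ptgs2*-KO, and -0.07 ± 0.08 (adjusted p = 0.591) for *ptges*-KO cells.

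Among the detoxifying enzymes, *Nqo1* (chr8:107388225-107403206, minus strand) codes for NAD(P)H quinone dehydrogenase 1 and is often taken as a readout of NRF2. It was at 31.1, 33.2, and 33.8 RPKM in scramble samples, at 26.7, 25.2, and 26.1 in *ptgs1*-KO samples, at 20.8, 23.3, and 20.6 in *ptgs2*-KO samples, and at 22.2, 21.1, and 20.8 in *ptges*-KO samples. All 9 knockout samples were below all 3 scramble samples, and *ptgs1*-KO samples lay between scramble and the other 2 knockouts without overlap. The log2 fold change against scramble cells was -0.32 ± 0.08 (adjusted p = 0.0176) in *ptgs1*-KO, -0.58 ± 0.08 (adjusted p = 0.000328) in *ptgs2*-KO, and -0.59 ± 0.08 (adjusted p = 0.000126) in *ptges*-KO cells, which left 79.5%, 65.9%, and 65.3% of the scramble mean. Without *ptgs1*-KO replicate 3, the value for *ptgs1*-KO cells was -0.32 (adjusted p = 0.0300). That call was lost in 4 of 22 alternative settings, without scramble replicate 2 (adjusted p = 0.0659) or 3 (0.0723), without *ptgs1*-KO replicate 2 (0.0644), and with only the groups compared (0.0528). *Nqo1* was the only one of the 9 tested genes that passed in the same direction in all 3 knockouts, and the 3 values share the scramble samples.

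*Hmox1* (chr8:75093621-75100589, plus strand) codes for heme oxygenase 1, which breaks down heme to biliverdin, iron, and carbon monoxide. It was at 47.2, 44.5, and 44.5 RPKM in scramble samples, at 45.1, 42.1, and 37.1 in *ptgs1*-KO samples, at 54.9, 56.8, and 54.1 in *ptgs2*-KO samples, and at 57.4, 52.1, and 53.9 in *ptges*-KO samples. Every *ptgs2*-KO and *ptges*-KO sample was above every scramble and *ptgs1*-KO sample. The log2 fold changes were 0.28 ± 0.08 (adjusted p = 0.0382) in *ptgs2*-KO and 0.26 ± 0.08 (adjusted p = 0.0288) in *ptges*-KO cells, folds of 1.21 and 1.20, and -0.13 ± 0.08 (adjusted p = 0.350) in *ptgs1*-KO cells. In *ptgs2*-KO and *ptges*-KO cells, *Hmox1* and *Nqo1* thus changed in opposite directions. The call of *Hmox1* was lost in 11 of 22 alternative settings for *ptgs2*-KO and in 6 of 22 for *ptges*-KO cells, with adjusted p of at most 0.116 and 0.0890.

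*Gstm1* (chr3:108012255-108017973, minus strand) codes for a cytosolic glutathione transferase of the mu class. It was at 37.6, 47.6, and 38.5 RPKM in scramble samples, at 66.6, 57.2, and 60.2 in *ptgs1*-KO samples, at 50.4, 48.5, and 46.9 in *ptgs2*-KO samples, and at 46.8, 42.8, and 44.5 in *ptges*-KO samples. The 3 *ptgs1*-KO samples were above the other 9. Its log2 fold change in *ptgs1*-KO against scramble cells was 0.57 ± 0.09 (adjusted p = 0.00175), a fold of 1.48, and 0.58 (adjusted p = 0.00598) without replicate 3. In *ptgs2*-KO and *ptges*-KO cells it was 0.24 ± 0.09 (adjusted p = 0.120) and 0.12 ± 0.09 (adjusted p = 0.381). Mu-class genes are close in sequence, and how reads shared between them were counted is not given in the sources used here, so the split between *Gstm1* and its relatives is uncertain.

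*Gsta4* (chr9:78182774-78209349, plus strand), a glutathione transferase for lipid aldehydes, was at the edge of detection. It was listed at 0.26, 0, and 0.27 RPKM in scramble samples, at 0.28, 0.15, and 0.14 in *ptgs1*-KO samples, at 0, 0.07, and 0.13 in *ptgs2*-KO samples, and at 0.19, 0, and 0 in *ptges*-KO samples. With the estimated depths, its highest value stands for about 4 reads. The *ptgs2*-KO samples were all below the *ptgs1*-KO samples, and every other pair of groups overlapped. With so few reads a difference between groups cannot be judged, and *Gsta4* was not tested.

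The knockouts were next compared with each other, to see which genes set one line apart from another. Between *ptgs2*-KO and *ptgs1*-KO cells, 8 of the 9 genes differed, 4 higher and 4 lower in *ptgs2*-KO cells, beside 23.6% of all genes tested (12.1% higher, 11.6% lower). *Gclm* (log2 fold change 0.61 ± 0.08, adjusted p = 8.12e-05), *Hmox1* (0.41 ± 0.08, adjusted p = 0.00203), *Txnrd1* (0.57 ± 0.17, adjusted p = 0.0260), and *Srxn1* (0.25 ± 0.08, adjusted p = 0.0449) were higher in *ptgs2*-KO cells. *Slc7a11* (-0.76 ± 0.13, adjusted p = 0.00103), *Nfe2l2* (-0.34 ± 0.09, adjusted p = 0.0164), *Gstm1* (-0.33 ± 0.09, adjusted p = 0.0222), and *Nqo1* (-0.26 ± 0.08, adjusted p = 0.0237) were lower. Levels of *Nfe2l2* and of *Gclm*, *Txnrd1*, *Srxn1*, and *Hmox1* differed in opposite directions between these 2 lines in this test, but the call of *Nfe2l2* was lost in 5 of 22 alternative settings (adjusted p of at most 0.154), that of *Txnrd1* in 6, and that of *Srxn1* in 13. *Gclc* did not pass (-0.01, 95% interval from -0.20 to 0.18). The median absolute log2 fold change was 0.34 for the 9 genes and 0.18 for all genes.

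**Figure D3:**
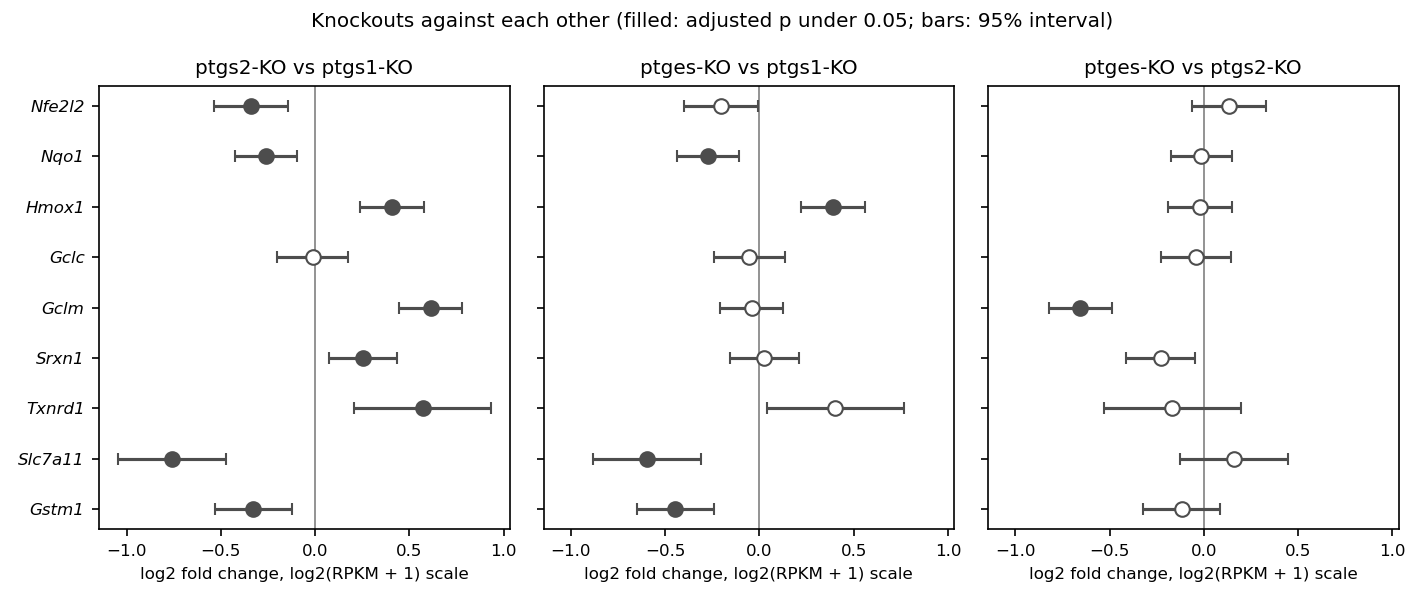
Log2 fold change of the 9 tested genes between knockouts, on the log2(RPKM + 1) scale, with 95% intervals from limma as bars and filled points for adjusted p under 0.05. In *ptgs2*-KO against *ptgs1*-KO cells 8 points are filled, 4 on each side of 0, and in *ptges*-KO against *ptgs2*-KO cells only *Gclm* is filled.

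Without *ptgs1*-KO replicate 3, 6 of these 8 genes still passed, 2 higher and 4 lower, beside 22.5% of all genes, and *Srxn1* (0.21, adjusted p = 0.120) and *Txnrd1* (0.45, adjusted p = 0.103) did not. The count was 5 without *ptgs1*-KO replicate 1, 4 without *ptgs2*-KO replicate 2, and 3 without *ptgs2*-KO replicate 3. All genes called fell as well, to 2334, 2004, and 2015 of 11282 in these 3 settings, from 2665.

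Between *ptges*-KO and *ptgs1*-KO cells, 4 of the 9 genes differed, beside 30.2% of all genes tested (13.2% higher, 17.0% lower). *Hmox1* was higher in *ptges*-KO cells (log2 fold change 0.39 ± 0.08, adjusted p = 0.00246). *Slc7a11* (-0.60 ± 0.13, adjusted p = 0.00445), *Gstm1* (-0.45 ± 0.09, adjusted p = 0.00311), and *Nqo1* (-0.27 ± 0.08, adjusted p = 0.0156) were lower. Without *ptgs1*-KO replicate 3, these 4 passed in the same direction, and *Nfe2l2* (-0.29, adjusted p = 0.0303) was lower as well, beside 29.3% of all genes. With all 12 samples *Txnrd1* did not pass (0.40, adjusted p = 0.0883), but it did in 3 of 22 alternative settings. These included the replicate number as a block (0.40, adjusted p = 0.0386).

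When *ptges*-KO was set against *ptgs2*-KO, *Gclm* was the single gene of the 9 that differed, beside 16.6% of all genes tested (6.76% higher, 9.84% lower). It was lower in *ptges*-KO cells, with a log2 fold change of -0.65 ± 0.08 (adjusted p = 6.81e-05), a fold of 0.635. *Nqo1* (-0.01, 95% interval from -0.18 to 0.15) and *Hmox1* (-0.02, 95% interval from -0.19 to 0.15) did not pass. *Srxn1* had a log2 fold change of -0.23 ± 0.08 that did not pass (adjusted p = 0.0830).

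The rest of the pathway was read from 8 further lists of 98 genes, of which 72 were tested. Against scramble cells, the *ptgs1*-KO line had 2 of the 72 higher and 5 lower (9.72%, beside 9.26% of all genes), the *ptgs2*-KO line 4 and 6 (13.9%, beside 11.1%), and the *ptges*-KO line 12 and 9 (29.2%, beside 26.3%). These shares were near the background in each line. Without *ptgs1*-KO replicate 3, the first counts were 5 higher and 4 lower, beside 8.93% of all genes. By the Tukey test, 3 of the 72 passed in *ptgs1*-KO (4.17%, beside 3.20% of all genes), 4 in *ptgs2*-KO (5.56%, beside 3.72%), and 11 in *ptges*-KO cells (15.3%, beside 10.2%). By list, the median log2 fold change lay between -0.42 and 0.23 in the 3 comparisons, both extremes being in *ptges*-KO cells, for other glutathione transferases and for superoxide dismutases and catalase.

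**Figure D4:**
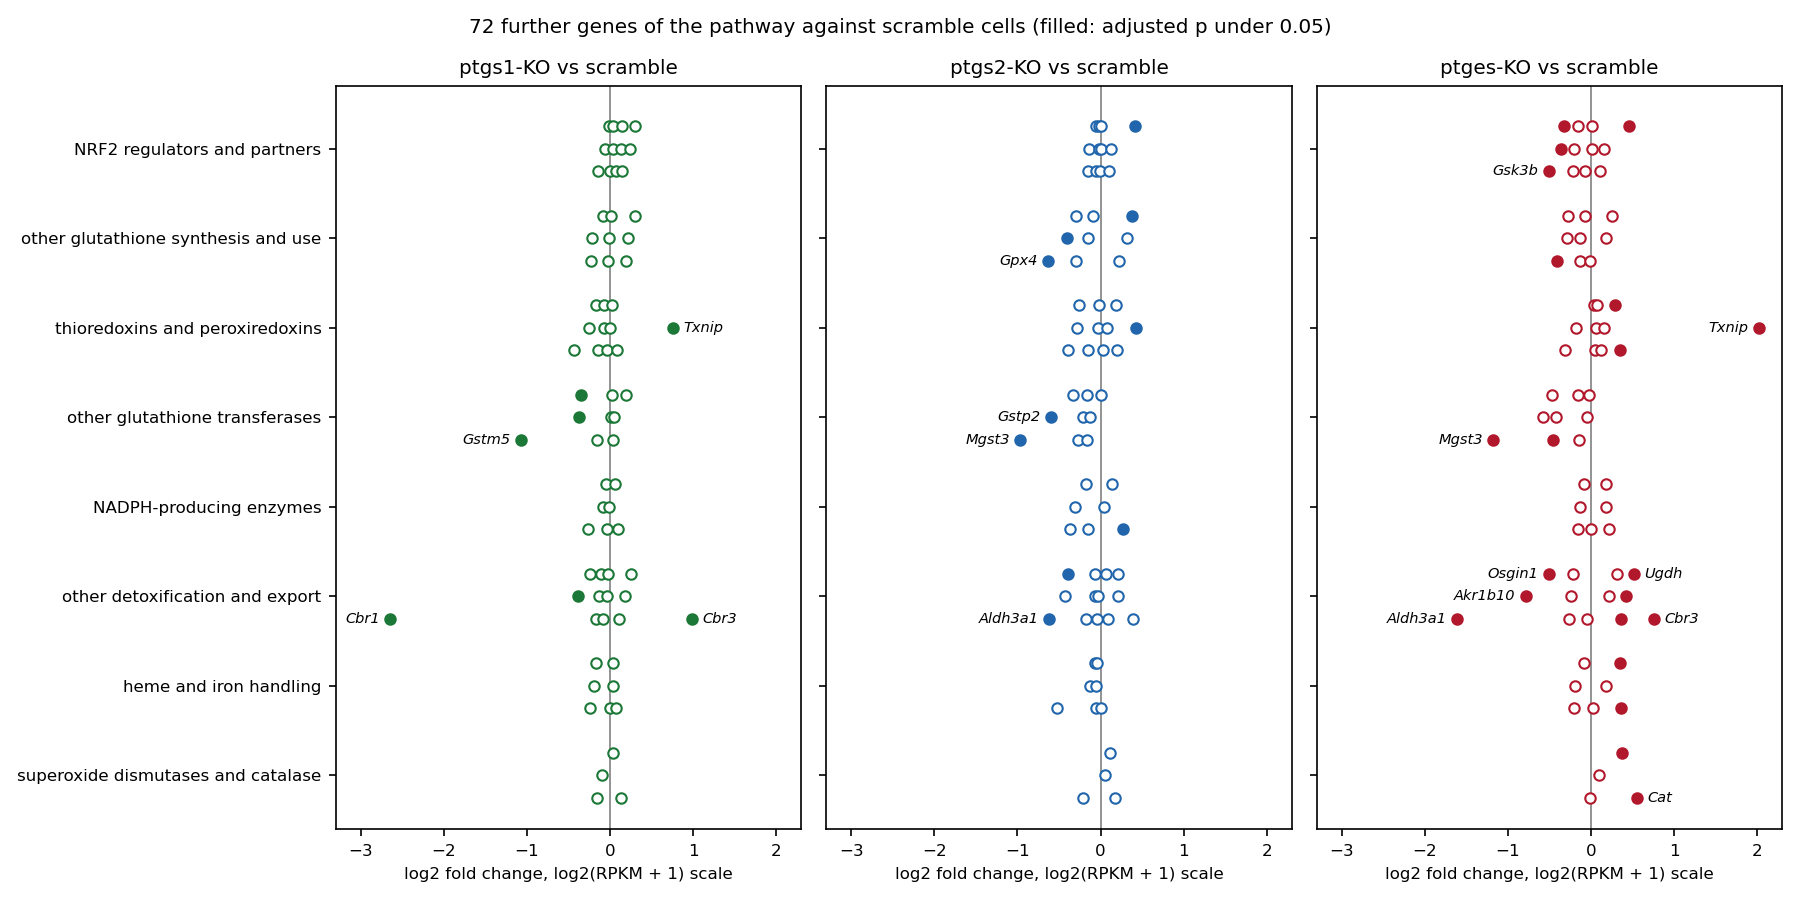
Log2 fold change of the 72 tested genes of 8 further lists in each knockout against scramble cells, on the log2(RPKM + 1) scale, with 1 point per gene, filled for adjusted p under 0.05 in limma, and names for filled points beyond 0.5. *Cbr1* in *ptgs1*-KO cells (-2.65) and *Txnip* in *ptges*-KO cells (2.02) lie farthest from 0.

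Of 21 glutathione transferases listed beside *Gstm1*, which was higher in *ptgs1*-KO cells, and *Gsta4*, 9 were tested. In *ptgs1*-KO 3 were lower (33.3%, beside 9.26% of all genes in either direction), in *ptgs2*-KO 2 (22.2%, beside 11.1%), and in *ptges*-KO 2 (22.2%, beside 26.3%), with 0 higher by limma in any of the 3, at an unadjusted p under 0.05 (0) or by the Tukey test (0). The median log2 fold change of the 9 was 0.02, -0.21, and -0.42 in the 3 lines, so that in *ptgs1*-KO cells the median and the calls differed in sign. *Mgst3*, a microsomal glutathione transferase, was at 336, 332, and 317 RPKM in scramble samples, at 128, 201, and 182 in *ptgs2*-KO samples, and at 123, 154, and 160.2 in *ptges*-KO samples. It was lower in all 6 of these knockout samples, with log2 fold changes of -0.97 ± 0.15 (adjusted p = 0.00134) and -1.17 ± 0.15 (adjusted p = 0.000139). In *ptgs1*-KO cells the mu-class gene *Gstm5* was at 8.38, 12.3, and 9.06 RPKM, against 22.1, 20.8, and 22.0 in scramble samples. Its log2 fold change was -1.07 ± 0.15 (adjusted p = 0.000473), opposite in direction to *Gstm1* in the same samples, and -1.02 (adjusted p = 0.00375) without replicate 3. *Gstp1* (-0.37 ± 0.09, adjusted p = 0.0161) and *Gsto1* (-0.35 ± 0.09, adjusted p = 0.0254) were also lower in *ptgs1*-KO cells, but without replicate 3 the values were -0.31 (adjusted p = 0.0464) and -0.27 (adjusted p = 0.0641), of which the second did not pass. *Gstp2* (-0.59 ± 0.15, adjusted p = 0.0240) was lower in *ptgs2*-KO cells, and *Gstm7* (-0.46 ± 0.16, adjusted p = 0.0472) in *ptges*-KO cells, where *Gstp1*, *Gstp2*, *Gstm5*, and *Gstm7* all have close relatives that could share reads.

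Of 13 tested genes of other detoxification and export, 1 was higher and 2 were lower in *ptgs1*-KO cells (23.1%, beside 9.26% of all genes), 2 were lower in *ptgs2*-KO cells (15.4%, beside 11.1%), and the *ptges*-KO line had 4 higher and 3 lower (53.8%, beside 26.3%). *Cbr1* and *Cbr3* code for carbonyl reductases, and the first also reduces PGE2 to PGF2α. *Cbr1* was at 7.55, 5.64, and 5.26 RPKM in scramble samples and at 0.37, 0, and 0.06 in *ptgs1*-KO samples, whereas it was between 7.18 and 9.25 in the other 6 knockout samples. For *ptgs1*-KO against scramble this was a log2 fold change of -2.65 ± 0.15 (adjusted p = 1.18e-07) on the log2(RPKM + 1) scale, and of -2.60 (adjusted p = 3.26e-06) without replicate 3. *Cbr3* moved the other way, from 1.73, 0.99, and 1.36 RPKM in scramble to 3.85, 3.12, and 4.02 in *ptgs1*-KO samples (0.99 ± 0.13, adjusted p = 0.000311) and to 2.94, 2.93, and 3.03 in *ptges*-KO samples (0.76 ± 0.13, adjusted p = 0.00116). The first of these was 0.93 (adjusted p = 0.00208) without *ptgs1*-KO replicate 3. *Aldh3a1*, an aldehyde dehydrogenase, was at 44.3, 37.3, and 41.1 RPKM in scramble samples, at 25.5, 27.4, and 25.9 in *ptgs2*-KO samples, and at 12.4, 14.3, and 11.4 in *ptges*-KO samples. It was lower in both lines, with log2 fold changes of -0.62 ± 0.10 (adjusted p = 0.00170) and -1.62 ± 0.10 (adjusted p = 2.07e-07), and its 3 groups did not overlap. *Akr1b10*, an aldo-keto reductase with close relatives, was lower in the same lines (-0.40 ± 0.10, adjusted p = 0.0240, and -0.79 ± 0.10, adjusted p = 0.000139). *Ephx1*, the microsomal epoxide hydrolase, was lower in *ptgs1*-KO cells (-0.38 ± 0.09, adjusted p = 0.0182, and -0.28, adjusted p = 0.0441, without replicate 3).

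In the thioredoxin list 11 of 11 genes were tested, and 1 passed in *ptgs1*-KO, 1 in *ptgs2*-KO, and 3 in *ptges*-KO cells, all higher (9.09%, 9.09%, and 27.3%, beside 9.26%, 11.1%, and 26.3% of all genes). *Txnip*, which binds and inhibits thioredoxin, was at 4.21, 2.21, and 2.60 RPKM in scramble samples, at 6.20, 5.89, and 4.83 in *ptgs1*-KO samples, and at 15.0, 14.7, and 15.1 in *ptges*-KO samples. It was higher in 3 of 3 samples of both lines, with log2 fold changes of 0.75 ± 0.17 (adjusted p = 0.0124) and 2.02 ± 0.17 (adjusted p = 2.70e-06). The first was 0.85 (adjusted p = 0.0165) without *ptgs1*-KO replicate 3. *Prdx6*, a peroxiredoxin that uses glutathione, was higher in *ptgs2*-KO (0.43 ± 0.08, adjusted p = 0.00455) and *ptges*-KO cells (0.35 ± 0.08, adjusted p = 0.00708), and *Prdx2* in *ptges*-KO cells (0.28 ± 0.10, adjusted p = 0.0451). *Txn1* and *Prdx1*, both often listed as NRF2 targets, passed in none of the 3 comparisons (adjusted p from 0.103 to 0.893).

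Of 9 tested genes of glutathione synthesis and use outside the 10, 1 was higher and 2 were lower in *ptgs2*-KO cells (33.3%, beside 11.1% of all genes). In *ptges*-KO cells 1 was lower (11.1%, beside 26.3%). With Tukey p-values adjusted again over all genes tested, 0 passed in either line, and the Tukey test alone was not counted. In *ptgs1*-KO cells 0 passed by limma, beside 9.26% of all genes, with 2 at an unadjusted p under 0.05 and 0 by the Tukey test. *Gsr*, glutathione reductase, was higher in *ptgs2*-KO cells (log2 fold change 0.38 ± 0.10, adjusted p = 0.0240). *Gpx4*, the peroxidase that reduces lipid hydroperoxides, was at 478, 445, and 435 RPKM in scramble samples and at 222, 340, and 329 in *ptgs2*-KO samples, lower in 3 of 3 (-0.63 ± 0.17, adjusted p = 0.0296). *Chac1*, which degrades glutathione, was lower in *ptgs2*-KO cells (-0.40 ± 0.09, adjusted p = 0.0123), and *Cth*, which makes cysteine from cystathionine, was lower in *ptges*-KO cells (-0.41 ± 0.11, adjusted p = 0.0182). Of the 7 NADPH-producing enzymes, all tested, *Me1*, the cytosolic malic enzyme, was higher in *ptgs2*-KO cells (0.27 ± 0.08, adjusted p = 0.0382), which is 14.3%, beside 11.1% of all genes. In *ptgs1*-KO and *ptges*-KO cells 0 passed by limma, beside 9.26% and 26.3% of all genes, with 0 and 3 at an unadjusted p under 0.05 and 0 by the Tukey test. The shares of all genes are for adjusted p and are no background for the counts at an unadjusted p.

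Of 7 tested genes of heme and iron handling outside the 10, 0 passed by limma in *ptgs1*-KO and *ptgs2*-KO cells, beside 9.26% and 11.1% of all genes (1 in each at an unadjusted p under 0.05, 0 by the Tukey test), and 2 were higher in *ptges*-KO cells (28.6%, beside 26.3% of all genes), *Hmox2* (log2 fold change 0.36 ± 0.08, adjusted p = 0.00590) and *Blvra* (0.35 ± 0.11, adjusted p = 0.0384), which code for the second heme oxygenase and a biliverdin reductase. The ferritin genes *Fth1* and *Ftl1* passed in none of the 3 comparisons. Of 4 tested superoxide dismutases and catalase, 0 passed by limma in *ptgs1*-KO and *ptgs2*-KO cells, beside 9.26% and 11.1% of all genes. There 0 and 1 had an unadjusted p under 0.05, and 0 passed by the Tukey test. In *ptges*-KO cells 2 were higher (50%, beside 26.3% of all genes). *Cat*, catalase, was at 23.2, 23.6, and 23.4 RPKM in scramble samples and at 38.1, 35.0, and 31.6 in *ptges*-KO samples (0.55 ± 0.10, adjusted p = 0.00204), and *Sod1*, cytosolic superoxide dismutase, rose by 0.37 ± 0.10 (adjusted p = 0.0131).

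Across the 12 samples, the 9 genes varied together only in part. The highest Pearson correlations on log2(RPKM + 1) were 0.873 between *Gclm* and *Srxn1*, 0.860 between *Hmox1* and *Txnrd1*, and 0.847 between *Nfe2l2* and *Slc7a11*, and the lowest was -0.644 between *Nqo1* and *Hmox1*. Outside the 10 genes, the levels of *Fbxo10* (r = 0.96) and *Atl3* (0.96) were among those most like *Nfe2l2*, and the levels most like *Gclm* were those of *Arl4c* (0.97), *Dhrs9* (0.97), and *Col7a1* (0.97). Mean *Arl4c* was 13.0 ± 1.32 RPKM (SD, n = 3) in the *ptgs2*-KO line and 5.61 to 6.91 in the others, and mean *Col7a1* 10.7 ± 1.74 against 1.71 to 2.10. These values describe 12 libraries that fall into 4 lines, and the differences between lines enter every correlation.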

How the data were processed

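RNA of 12 samples in 4 groups, assigned by their labels, was measured by RNA-seq. Reads were paired-end, of 101 bp, and 1 table of RPKM values with 2 decimals was deposited for all samples. Per the labels the build was mm10, whereas the aligner, the counting, its use of strand, and the gene models are not given in the sources used here. The labels name both a TruSeq and a directional NEXTflex library kit. Sums of the values were nearly equal, from 878504 to 903881, so another scaling to a fixed total is possible.

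The 10 genes, the 8 further lists, and the tests were chosen with earlier results of these data known. The 11282 of 30705 gene names that averaged 1 RPKM or more were tested on log2(RPKM + 1), a pseudocount of 1, by limma 3.58.1 in R 4.3.3 (lmFit and eBayes with trend), all 12 samples in the model and group as the only term. Fold changes on this scale understate changes of low genes. Adjusted p is Benjamini-Hochberg over all genes tested, at 0.05, two-sided. The text names all 10 genes, the 3 target genes, from each further list the up to 3 genes with the largest change that passed against scramble cells, and the 3 genes most like *Nfe2l2* and the gene of the 10 with the largest F, of which 1 is not reported here. *Keap1*, *Bach1*, *Txn1*, *Prdx1*, *Fth1*, and *Ftl1* were added after their values were seen. Genes closely related in sequence, such as *Gstm1* and *Gstm5*, *Gstp1* and *Gstp2*, or the *Akr1b* genes, may share reads.

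Depth was inferred from the spacing of low values in genes with a single GENCODE transcript of 300 to 1500 bases, and is least sharp in *ptgs1*-KO replicate 1. Counts were not rebuilt, and no counting intervals were computed. Samples of 1 line correlated with r from 0.984 to 0.995 across genes. Same-numbered samples deviated together in *ptgs2*-KO and *ptges*-KO cells (r of 0.566, 0.112, and 0.254), a pairing that comes from the data and not from the labels. In no other pair of groups were all 3 correlations over 0.1. Positions are on GRCm38, and promoter windows are RefSeq (GRCm38.p6). Alternatives were a pseudocount of 0.1, no filter, a mean of at least 10 RPKM, median ratio scaling, quantile normalization, the replicate number as a block, only the groups compared, eBayes without trend, the Tukey test that the study names (on untransformed RPKM), each sample left out, and, chosen after seeing the data, omission of the 2 ribosomal RNA rows *Rn45s* and *AK155692* with rescaling. The Tukey p-values, already adjusted for the pairs of groups, were adjusted again by Benjamini-Hochberg over all genes tested. The study describes no such second step, so its own test is less strict. Steps were tested on simulated data. Figures were drawn with matplotlib 3.10.9 in Python 3.11.15.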

Additional observations from a re-analysis of the deposited data

Results flagged for a closer look

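The results below were singled out because the change of a gene differed between 2 knockouts by a direct test in limma. They are log2 fold changes on the log2(RPKM + 1) scale with adjusted p over all genes tested. In *ptgs2*-KO against *ptgs1*-KO cells these were *Nfe2l2* (-0.34, adjusted p = 0.0164), *Nqo1* (-0.26, adjusted p = 0.0237), *Hmox1* (0.41, adjusted p = 0.00203), *Gclm* (0.61, adjusted p = 8.12e-05), *Srxn1* (0.25, adjusted p = 0.0449), *Txnrd1* (0.57, adjusted p = 0.0260), *Slc7a11* (-0.76, adjusted p = 0.00103), and *Gstm1* (-0.33, adjusted p = 0.0222). In *ptges*-KO against *ptgs1*-KO cells they were *Nqo1* (-0.27, adjusted p = 0.0156), *Hmox1* (0.39, adjusted p = 0.00246), *Slc7a11* (-0.60, adjusted p = 0.00445), and *Gstm1* (-0.45, adjusted p = 0.00311). For *ptges*-KO and *ptgs2*-KO cells it was *Gclm* (-0.65, adjusted p = 6.81e-05). In the library of *ptgs1*-KO replicate 3, ribosomal RNA rows held 13.5% of the summed RPKM, and without it 6 of 8, then 4 of 4 of these results passed in the first and the second comparison.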

How the results depend on the processing

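Of 54 log2 fold changes (9 genes, 6 comparisons), 21 passed, 9 of these passed in all 22 alternative settings, and 0 of the 21 changed sign in any. The 9 were, against scramble cells, *Gstm1* in *ptgs1*-KO, *Nqo1* and *Gclm* in *ptgs2*-KO, and *Nqo1* in *ptges*-KO cells, and, between knockouts, *Hmox1* and *Gclm* in *ptgs2*-KO against *ptgs1*-KO, *Hmox1* and *Gstm1* in *ptges*-KO against *ptgs1*-KO, and *Gclm* in *ptges*-KO against *ptgs2*-KO cells. With subclones of 1 line as samples and 3 a group, small differences of these genes cannot be separated from the spread between subclones. *Gsta4* is limited by depth.

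Counts of the 9 genes that passed moved by over 1.5 times in these settings, and the cause was not tested. In *ptges*-KO against scramble cells the Tukey test gave 1 in place of 2, with 1151 of all genes called in place of 2969. In *ptgs2*-KO against *ptgs1*-KO cells only the groups compared gave 5 and the Tukey test 2 in place of 8. All genes called were then 1962 and 1300 in place of 2665. In *ptges*-KO against *ptgs2*-KO cells median ratio scaling gave 3, quantile normalization 2, and omission of the ribosomal RNA rows 2 in place of 1. All genes called were then 2494, 2345, and 2284 in place of 1873. With samples left out in turn, counts ranged from 1 to 3 in *ptgs1*-KO and from 1 to 2 in *ptges*-KO against scramble cells, and from 3 to 8 between *ptgs2*-KO and *ptgs1*-KO cells. The first fell to 1 without *ptgs1*-KO replicate 2, and the second to 1 without scramble replicate 2 or 3 or any *ptges*-KO replicate, each time by the loss of *Hmox1* in the latter. All genes called in the second comparison were then 2196 and 2070 without scramble replicate 2 and 3. They were 2746, 1936, and 2273 without *ptges*-KO replicate 1, 2, and 3, in place of 2969. With the replicate number as a block, the counts were 3, 3, and 2 against scramble cells, 8, 5, and 1 between knockouts, and 7 in place of 6 over the 4 groups. The block raised all genes called in *ptges*-KO against scramble cells from 2969 to 3099. Between *ptges*-KO and *ptgs2*-KO cells, whose same-numbered samples deviated together in 3 of 3 pairs, it called 2011 genes in place of 1873. Over all groups, same-numbered samples correlated at a mean r of 0.0123 (18 pairs, 5 over 0.1), against -0.0046 in other pairs, and 5 of 12 samples correlated best with their own number.

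Reversed signs all belong to values near 0 that did not pass. In *ptges*-KO against scramble cells they were -0.01 for *Nfe2l2* with quantile normalization and without the ribosomal RNA rows (-0.05 to 0.06 with samples left out), 0.04 for *Slc7a11* with both scalings (-0.07 to 0.07), and *Gclc* (-0.14 to 0.00). *Gclc* gave 0.01 (quantile) and 0.04 (without ribosomal RNA rows) in *ptgs1*-KO (-0.09 to 0.05), -0.10 to 0.04 in *ptgs2*-KO, and -0.06 to 0.02 between them. Between *ptges*-KO and *ptgs2*-KO cells, *Nqo1* gave 0.04 with both scalings (-0.04 to 0.04), *Hmox1* 0.03 and 0.01 (-0.06 to 0.01), and *Gclc* 0.01 with the median ratio (-0.08 to 0.01). Between *ptges*-KO and *ptgs1*-KO cells, *Gclc* gave 0.00 and *Gclm* 0.01 with the median ratio (*Gclm* -0.10 to 0.01), and *Srxn1* -0.04 without ribosomal RNA rows (-0.02 to 0.09).

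Over all genes, the Tukey test called 361, 420, and 1151 against scramble cells in place of 1045, 1257, and 2969, and 1300, 1590, and 639 between knockouts in place of 2665, 3409, and 1873. Quantile normalization called 1570 in *ptgs1*-KO and median ratio scaling 1963 in *ptgs2*-KO cells, and the filter at 10 RPKM 582 in *ptgs1*-KO cells. Against scramble cells, *ptgs1*-KO had 645 and 658 without scramble replicate 1 and 2, *ptgs2*-KO 722, 771, and 829 without scramble replicate 1, 2, and 3 and 822 and 802 without its own replicate 1 and 3, and *ptges*-KO 1936 without its replicate 2. Between *ptges*-KO and *ptgs2*-KO cells there were 1209 without *ptgs2*-KO replicate 1, and 1104 and 1193 without *ptges*-KO replicate 2 and 3. Genes called higher in *ptgs1*-KO against scramble cells were 525 of 1045, and 846 of 1361 without ribosomal RNA rows. Without *ptgs1*-KO replicate 1, 2, and 3 they were 307 of 763, 349 of 776, and 653 of 1008. In *ptgs2*-KO against *ptgs1*-KO cells they were 1360 of 2665, 1261 of 3003 without ribosomal RNA rows, 1019 of 2537 without *ptgs1*-KO replicate 3, and 1390 of 2334 without *ptgs1*-KO replicate 1. In *ptges*-KO against *ptgs1*-KO cells they were 1494 of 3409, 1270 of 3984 without these rows, and, with the balance turned, 2210 of 4116 with the median ratio and 1970 of 3761 with quantile normalization, and in *ptges*-KO against *ptgs2*-KO cells 763 of 1873, and 1289 of 2494 with the median ratio. Of 33 named values of further genes, 0 changed sign over 3 scalings, and *Prdx2* (adjusted p = 0.0524) and *Gstm7* (0.0906, quantile) and *Blvra* (0.0509, without ribosomal RNA rows) lost their calls in *ptges*-KO cells.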
